A study of Mus musculus with 24 samples.

Results

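The mouse mitochondrial genome encodes 13 proteins, all of them subunits of the respiratory chain or of ATP synthase, together with the 2 RNAs of the mitochondrial ribosome and a set of tRNAs. Its transcripts were followed here in the liver as the 35 genes that the deposited tables place on the mitochondrial chromosome, out of 27802 genes in all. They comprise 13 mRNAs, 2 rRNAs and 20 tRNAs, chosen by position alone. The tRNA genes mt-Tf and mt-Tv of the same chromosome were not analysed here. Low-count filtering over all genes kept 32 members for testing, namely the 13 mRNAs, both rRNAs and 17 tRNAs. The other 3 (mt-Td, mt-Tk and mt-Tt) held 2, 47 and 41 reads over all libraries.

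Poly-A RNA was sequenced from the livers of 24 adult mice, 1 library per mouse. A virus carrying a Cre-dependent caspase 3, an executioner of apoptosis, was placed in the arcuate nucleus of mice with Cre under an angiotensin AT1A receptor transgene (BAC-AT1A-Cre). The aim was to remove the AgRP neurons that carry this receptor. Mice were housed from surgery at 22 °C or at 30 °C, and livers were frozen 2 weeks later. Ablated mice at 22 °C were 3 males and 3 females, and controls at 22 °C were 3 males and 3 females. Ablated mice at 30 °C were 3 males and 3 females, and controls at 30 °C were 2 males and 4 females. All 12 ablated mice carried Cre, as did 4 of the 12 controls (1 male at 22 °C, and both males and 1 female at 30 °C). No source used here states what the controls received in the brain. All mice at 22 °C were Ai39 x BAC-AT1A-Cre. All mice of this cross carried Halo+/-, the Ai39 allele. At 30 °C, 7 were of that cross, 2 (both ablated, R+/+ and R+/-) were Ai9 x BAC-AT1A-Cre and 3 (1 ablated, 2 control) were BAC-AT1A-Cre alone. Line and temperature can be told apart only in part.

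Mitochondrial DNA is read from both strands into long precursors that span many genes. The tRNAs lie between most of the other genes, and their excision releases the mRNAs and rRNAs, most of which then receive short poly-A tails. The nuclear genome supplies the machinery: Polrmt is the RNA polymerase, Tfam packages the DNA and activates its promoters, and Lrpprc stabilises the mature mRNAs. In hepatocytes, which are rich in mitochondria, these RNAs make up a sizeable part of poly-A RNA. Since mitochondrial RNA competes with nuclear RNA for reads, more mitochondrial RNA per cell and less nuclear RNA per cell cannot be told apart in bulk liver.

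In the order of the genome, mt-Rnr1 and mt-Rnr2 (the small and large ribosomal RNAs) come first. The mRNAs follow as mt-Nd1, mt-Nd2, mt-Co1, mt-Co2, mt-Atp8, mt-Atp6, mt-Co3, mt-Nd3, mt-Nd4l, mt-Nd4, mt-Nd5, mt-Nd6 and mt-Cytb. By complex, they belong to complex I (mt-Nd1 to mt-Nd6 and mt-Nd4l), complex III (mt-Cytb), complex IV (mt-Co1 to mt-Co3) and ATP synthase (mt-Atp6 and mt-Atp8). All 12 mRNAs other than mt-Nd6 are on the plus strand. mt-Nd6 and 8 of the 20 tRNAs are on the minus strand. The tRNAs on which the results turn are shown in full because a cluster of neighbouring minus-strand tRNAs gave the lowest p-values, while mt-Tp and mt-Te held most tRNA reads. Sequences are from GENCODE M21 (GRCm38), in which all 35 genes have the same start, end and strand as in the deposited tables (GRCm39). Capitals mark the anticodon.
mt-Tn: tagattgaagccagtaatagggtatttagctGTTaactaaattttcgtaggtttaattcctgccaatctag
mt-Tc: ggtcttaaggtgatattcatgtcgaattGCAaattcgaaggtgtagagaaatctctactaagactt
mt-Ty: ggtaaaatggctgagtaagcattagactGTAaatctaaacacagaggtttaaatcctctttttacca
mt-Tp: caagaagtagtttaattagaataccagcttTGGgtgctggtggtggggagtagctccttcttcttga
mt-Te: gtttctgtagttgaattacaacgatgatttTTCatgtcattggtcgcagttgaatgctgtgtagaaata
These read asparagine (mt-Tn, chrMT:5089-5159, minus strand), cysteine (mt-Tc, chrMT:5192-5257), tyrosine (mt-Ty, chrMT:5260-5326), proline (mt-Tp, chrMT:15356-15422) and glutamate (mt-Te, chrMT:14071-14139).

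Genes of this chromosome touch or overlap, which limits how far single genes can be separated. The last 45 bases of mt-Nd5 (chrMT:13521-13565, plus strand) and of mt-Nd6 (chrMT:13552-13596, minus strand) are shown because ratios to mt-Nd5 carried the clearest temperature difference. Capitals mark the 14 bases that the genes share on opposite strands.
mt-Nd5: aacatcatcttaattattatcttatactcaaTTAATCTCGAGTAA
mt-Nd6: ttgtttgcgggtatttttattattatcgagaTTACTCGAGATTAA
Whether counting used strand is not given, so reads of a gene and of RNA from the opposite strand cannot be told apart. mt-Nd4l and mt-Nd4 share 7 bases on the same strand and mt-Atp8 and mt-Atp6 share 43.

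Depth was 21691653 to 34851108 reads in genes. The summed level of 6 hepatocyte markers was 62690 to 103000 CPM (read counts scaled to a common depth with TMM factors) over the 24 libraries. Markers of exocrine pancreas, skeletal muscle and adipocytes summed to at most 1.301, 18.1 and 0.648 CPM. The library of 30 °C control male 1 stood apart from the other 23 on the first principal component of all genes and had the fewest genes with at least 10 reads (13601, against 16682 in the richest library). Results that rest on it are also given without it. Replicates were separate mice. P-values measure the spread between mice.

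Mitochondrial genes held from 7.53% of reads (95% exact binomial interval 7.52% to 7.54%) in 30 °C ablated female 3 to 37.3% (37.2% to 37.3%) in 22 °C control female 3. These intervals cover counting error only, and the spread between mice was far wider. Over 24 libraries, mRNAs made up 97.4% to 98.4% of the mitochondrial reads, rRNAs 1.36% to 2.45% and tRNAs 0.143% to 0.242%. In 22 °C ablated mice the mitochondrial share was 17.7% at lowest, 19.1% at the median and 27.6% at highest, against 13.8%, 24.2% and 37.3% in 22 °C controls. In 30 °C ablated mice it was 7.53%, 16.3% and 20.6%, against 11.97%, 15.7% and 23.8% in 30 °C controls. All 4 groups overlapped, and mice of the same group, sex and temperature could differ by more than the groups did.

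**Figure D1:**
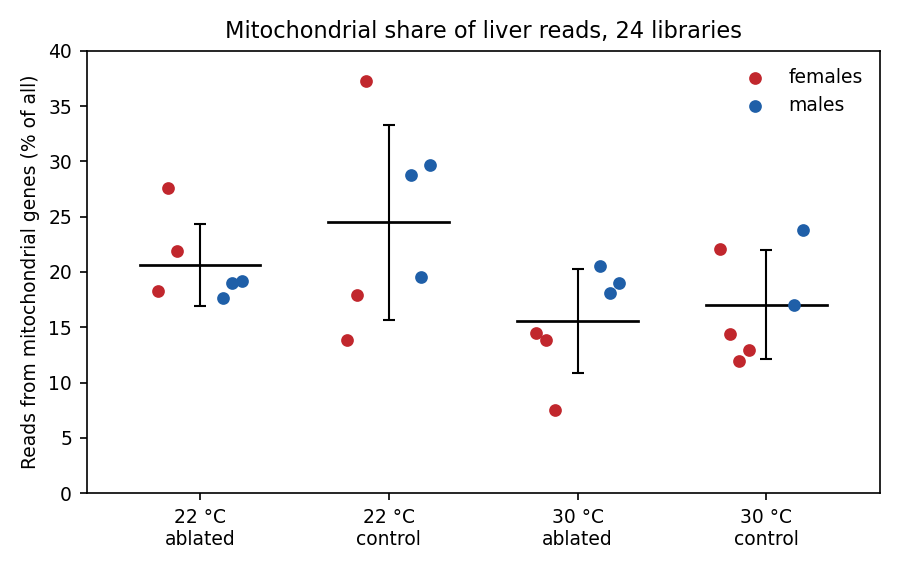
Share of reads from the 35 mitochondrial genes (y axis, percent of all reads in genes) in the 24 libraries, by temperature and ablation (x axis); points are mice coloured by sex, lines and bars are mean ± SD of 6 mice. The 22 °C controls spread from 13.8% to 37.3%, and all 4 groups overlap.

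Averaged over both sexes, the share was 3.896 percentage points lower in ablated than in control mice at 22 °C and 2.29 points lower at 30 °C. It was 6.62 points higher at 22 °C than at 30 °C in controls and 5.01 points higher at 22 °C in ablated mice. These are differences between means, with a pooled SD between mice of 5.82 points. The sexes contributed unequally. For ablation at 22 °C, the share averaged 18.6% ± 0.80 in ablated and 25.99% ± 5.62 in control males, but 22.6% ± 4.68 in ablated and 22.98% ± 12.5 in control females (SD, n = 3 each). For ablation at 30 °C it averaged 11.96% ± 3.85 in 3 ablated and 15.4% ± 4.61 in 4 control females, and 19.2% ± 1.26 in 3 ablated and 20.4% ± 4.79 in 2 control males (SD). In ablated females it averaged 22.6% at 22 °C and 11.96% at 30 °C, while ablated males went the other way, with 18.6% at 22 °C and 19.2% at 30 °C (n = 3 each). Among ablated females at 30 °C, female 3, of Ai9 x BAC-AT1A-Cre, had 7.53%. Females 1 and 2, of Ai39 x BAC-AT1A-Cre, had 14.5% and 13.9%. In controls both sexes had the higher mean at 22 °C, by 7.62 points in females and 5.61 points in males. Whether these differences depend on sex was not tested. The value for ablation at 22 °C rested on 22 °C control female 3, without which it was -0.326 points, and was -6.19 without 22 °C control female 1. Without 22 °C control female 3, the temperature difference in controls was 3.05 points. For ablation at 30 °C, the difference was -0.600 points without control male 2, -1.17 without control female 1, -1.19 without ablated female 3 and -3.99 without control male 1.

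Levels of different genes were compared per length, as the authors' FPKM (fragments scaled to gene length and to depth). mt-Co1, the catalytic subunit of cytochrome c oxidase, had the highest median over 24 libraries (43126 FPKM), followed by mt-Cytb (28938 FPKM), mt-Nd2 (18882 FPKM), mt-Nd1 (17450 FPKM) and mt-Nd4 (13811 FPKM). The median of mt-Nd6 was 6719 FPKM and that of mt-Nd5 was 4656 FPKM. Neighbouring genes in this order had overlapping ranges over libraries. The rRNAs were at 1654 FPKM for mt-Rnr1 and 1102 FPKM for mt-Rnr2, in libraries made from poly-A RNA. The lowest mRNAs were mt-Nd3 (470 FPKM), mt-Nd4l (468 FPKM) and mt-Atp8 (68.4 FPKM).

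Several of the lower mRNAs have a near-identical copy in the nuclear genome. A stretch of chromosome 1 (chr1:24650616-24655278, minus strand, GRCm39) holds 7 annotated pseudogenes that match mt-Co1 to mt-Nd4 in order. Copies of mt-Co2 (Gm28661, 681 bases), mt-Atp6 (Gm10925, 678 bases), mt-Co3 (Gm28437, 783 bases), mt-Nd3 (Gm28438, 342 bases) and mt-Nd4l (Gm10222, 294 bases) match at 100% over nearly the whole gene. For mt-Nd4, 876 of 1378 bases are matched by Gm28439, and for mt-Co1, 483 of 1545 bases by Gm29216 with 1 mismatch. The end of mt-Co2 (chrMT:7652-7696, plus strand) shows how closely the copy follows the gene, with capitals for the bases also present in Gm28661, which stops short of the last 3.
mt-Co2: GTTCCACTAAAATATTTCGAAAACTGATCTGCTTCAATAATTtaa
Reads from within these matches cannot be assigned to one place by sequence. Gm10925, Gm28661 and Gm28437, the copies with most reads, were counted with 23.1%, 21.4% and 21.3% of the reads of copy and gene together at the median of 24 libraries. For Gm28661 this share ran from 10.9% to 54.6%. The 5 mRNAs with a nearly whole copy are therefore reported as uncertain, and the part of the copies in their low level was not tested. mt-Atp8, the lowest mRNA, shares with a copy only the 43 bases where it overlaps mt-Atp6.

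**Figure D2:**
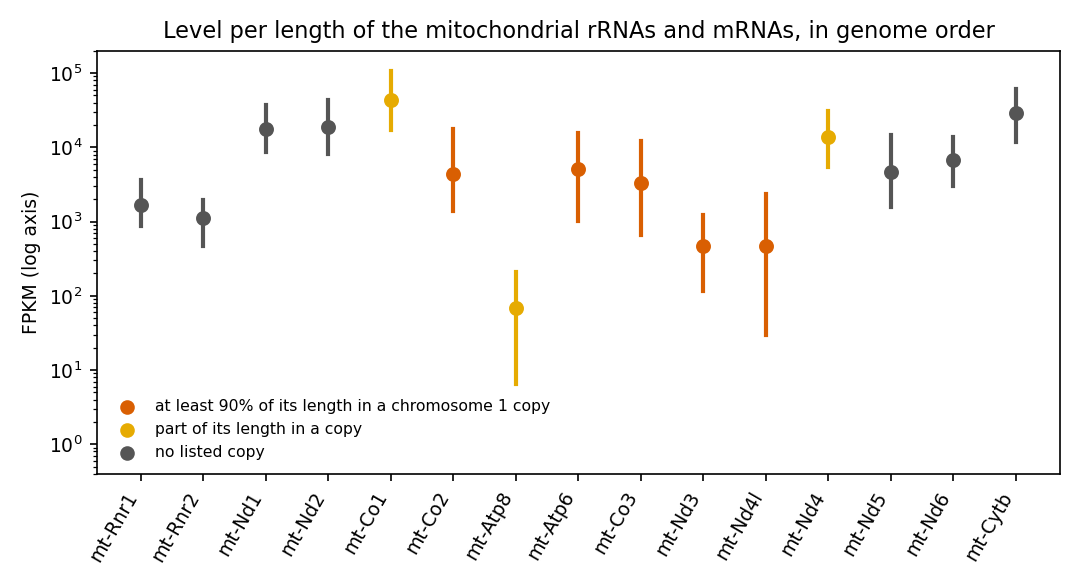
FPKM of the 2 rRNAs and 13 mRNAs in genome order (x axis) on a log y axis; dots are medians and bars the range over 24 libraries, coloured by how much of the gene is matched by a chromosome 1 copy. The 5 mRNAs with a nearly whole copy lie between 468 FPKM (mt-Nd4l) and 5106 FPKM (mt-Atp6) at the median, and mt-Co1 is highest at 43126 FPKM.

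Around the group means, the first principal component of the log2 levels of the 13 mRNAs held 79.0% of their variance. The SD of log2 CPM within groups was 0.47 for mt-Co1, 0.42 for mt-Cytb and 0.44 for mt-Nd4. Relative to the sum of the 13 mRNAs the SD of the same genes was 0.07, 0.06 and 0.06. All 13 mRNAs had a smaller SD relative to that sum than as CPM. Each mRNA is itself part of the sum, so a smaller SD is partly built in, most for the largest parts. For scale, the median SD of log2 CPM was 0.26 over the 1196 genes averaging over 100 CPM. mt-Nd4l (0.82), mt-Atp8 (0.61), mt-Co2 (0.51) and mt-Co3 (0.42) varied most relative to the sum. mt-Co1 made up 32.4% to 42.7% of the mitochondrial mRNA reads in the 24 libraries and mt-Cytb 16.1% to 19.8%.

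Of the tRNA reads, 87.5% came from the 8 minus-strand genes. mt-Tp alone held 56.9%, followed by mt-Te (16.4%), mt-Tc (6.91%), mt-Tl2 (5.25%, a leucine tRNA of the plus strand) and mt-Ty (3.86%). mt-Te lies directly upstream of mt-Nd6 on the same strand, and mt-Tp is the last gene before the control region. Mature tRNAs carry no poly-A tail, and whether these reads come from tRNAs, precursors or RNA of the opposite strand was not tested.

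Ablation at 22 °C was set against control at 22 °C to ask whether loss of the neurons alters the liver below thermoneutrality. EdgeR's quasi-likelihood test with Benjamini-Hochberg adjustment called no mitochondrial gene at the 0.05 threshold (0 of 32, where 0.094% of the 20213 genes tested were called). At an unadjusted p under 0.05 there were 7 of 32, against 8.34% of all genes, and DESeq2 and limma voom also called 0. The 13 mRNAs all had negative log2 fold changes, with a median of -0.38 beside 0.02 over all genes. These values average the sexes: mean log2 CPM was lower in ablated males than in control males for 13 of 13 mRNAs (median -0.72), but lower in ablated than in control females for 6 of 13. mt-Co1 was 54221 CPM at lowest, 71066 at the median and 114690 at highest in 22 °C ablated mice, against 49753, 96922 and 161260 CPM in 22 °C controls. The groups overlapped, and the log2 fold change was -0.38 ± 0.24 (SE, edgeR adjusted p = 0.709). mt-Cytb, the core of complex III, had a log2 fold change of -0.38 ± 0.22 (edgeR adjusted p = 0.663).

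Of the complex I mRNAs, mt-Nd5 reached 7141, 9775 and 15408 CPM at lowest, median and highest in 22 °C ablated mice, against 7120, 17317 and 26143 CPM in 22 °C controls. Its log2 fold change was -0.66 ± 0.26 (edgeR adjusted p = 0.492). Values for the other complex I mRNAs ran from -1.16 for mt-Nd4l to -0.15 for mt-Nd3, both of which have a chromosome 1 copy. The ATP synthase mRNAs mt-Atp6 and mt-Atp8 had values of -0.29 and -0.13, and mt-Rnr1 and mt-Rnr2 of -0.18 and -0.23. All 8 minus-strand tRNAs had negative values, with a median of -0.73, against -0.34 over 9 plus-strand tRNAs. The lowest p among members belonged to mt-Tc, at 16.1, 21.1 and 30.8 CPM in 22 °C ablated mice, against 17.995, 45.2 and 55.0 CPM in 22 °C controls. It differed by -0.70 ± 0.21 on the log2 scale (edgeR adjusted p = 0.286). Next were mt-Te, at -1.03 ± 0.34, and mt-Ty, at -0.71 ± 0.25.

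The median of the 13 mRNAs was -0.08 without 22 °C control female 3, the mouse with the highest mitochondrial share. With no filter on low counts, edgeR called 4 members (mt-Nd4l, mt-Tc, mt-Te and mt-Ty), all lower in ablated mice, where 1.44% of all genes were called. Adding Cre as a term left 1 member at an unadjusted p under 0.05, against 7 in the fit reported. All ablated mice but only 1 control at 22 °C carried Cre, so ablation and Cre can be told apart only in part. With total counts in place of TMM the median was -0.23, a scaling that shifts the median of all genes by 0.13. Beside these values, the nuclear RNAs Malat1 and Neat1 summed to 2167 to 4768 CPM in 22 °C ablated mice. In 22 °C controls they summed to 1304 to 2210 CPM. Their log2 fold changes were 1 positive and 1 negative. With total counts in place of TMM, the median of Neat1 was 1994 CPM in ablated mice and 976 CPM in controls. The median of Malat1 was lower in ablated mice, at 543 CPM, against 614 CPM in controls. The summed level of 6 stellate cell markers was 126.3 to 304.1 CPM in ablated mice, against 70.7 to 157.5 CPM in controls, with no marker at 0 throughout. All 6 had positive log2 fold changes (median 0.65), as had all 6 Kupffer cell (0.38), 4 cholangiocyte (0.67) and 4 lymphocyte markers (0.72). So had 4 of 5 sinusoidal endothelial markers. Hepatocyte markers were 3 positive and 3 negative, and 4 of 5 erythroid markers were negative. The part of these shifts in the mitochondrial values was not tested.

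At 30 °C, near thermoneutrality for mice, the same contrast gave 0 of 32 members called by edgeR, DESeq2 or limma voom, where 0% of all genes were called by edgeR. None reached an unadjusted p under 0.05, against 6.96% of all genes. The mRNAs again had 13 negative values, with a median of -0.25 beside 0.05 over all genes. Within the sexes, 13 of 13 mRNAs had a lower mean log2 CPM in ablated than in control females, and 7 of 13 in ablated than in control males. mt-Co1 was 27252, 59360 and 77360 CPM at lowest, median and highest in 30 °C ablated mice, against 44159, 52391 and 88540 CPM in 30 °C controls, with a log2 fold change of -0.15 ± 0.24 (edgeR adjusted p = 0.982). The groups overlapped. The tRNAs were mixed, with 6 positive and 11 negative values. Without control male 2, which leaves control male 1 as the only control male, edgeR called 3 of 32 members and 3.63% of all genes. The mRNA median was -0.33 without control male 1, -0.08 without control male 2, -0.12 without control female 1 and -0.10 without ablated female 3.

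The ablation effect at 22 °C minus that at 30 °C was tested as an interaction. It called 0 of 32 members by edgeR, DESeq2 or limma voom (0% of all genes by edgeR). An unadjusted p under 0.05 was reached by 1 of 32, against 6.995% of all genes. The median over the 13 mRNAs was -0.13, beside -0.05 over all genes. It was 0.02 with total counts in place of TMM and 0.13 without 22 °C control female 3, so its sign depended on both. Without 30 °C control male 2 edgeR called 3 members (2.06% of all genes), and with no filter on low counts 1 (mt-Nd4l, 0.687% of all genes).

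**Figure D3:**
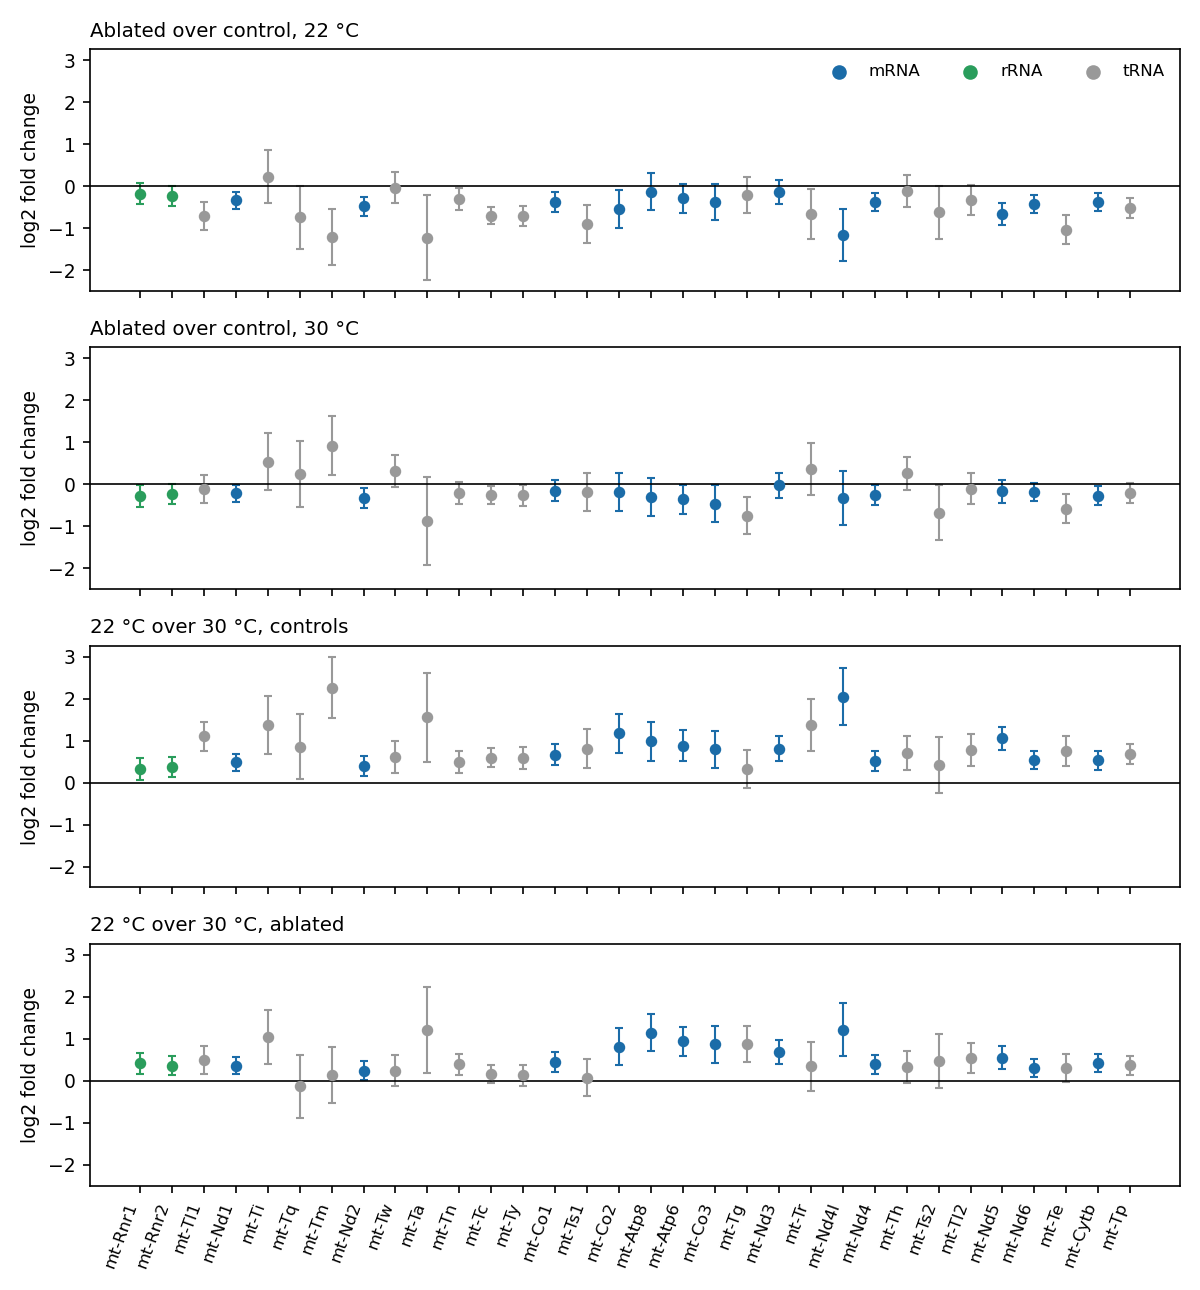
Log2 fold change ± SE (y axis) of the 32 tested mitochondrial genes in genome order (x axis), in 4 comparisons, coloured as mRNA, rRNA or tRNA. Most points of both ablation comparisons lie below 0 and most of both temperature comparisons above 0, and none passed the adjusted threshold.

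Housing at 22 °C was set against 30 °C within each treatment, to describe the response to temperatures below thermoneutrality. In controls, all 32 members were higher at 22 °C than at 30 °C in estimate, but 0 were called by edgeR, where 0.0346% of all genes were called. An unadjusted p under 0.05 was reached by 18 of 32, against 12.6% of all genes. With Cre as a term, 9 of 32 reached it and 0 were called. In Ai39 x BAC-AT1A-Cre mice alone, with sex as an additive term, 9 of 33 reached it and 0 were called. DESeq2 called 2, mt-Nd5 and mt-Nd4l, and limma voom 0. The median log2 fold change of the 13 mRNAs was 0.79, beside 0.05 over all genes. It was 0.34 without 22 °C control female 3 and 0.52 without 30 °C control male 1. EdgeR called 13 members with no filter on low counts (0.982% of all genes), and 7 of 32 without 30 °C control male 2 (7.23% of all genes), which leaves control male 1 as the only male of its group.

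mt-Nd5, a proton-pumping subunit of complex I, had the lowest p of the members. It was 7120 CPM at lowest, 17317 at the median and 26143 at highest in 22 °C controls, against 4694, 7245 and 11962 CPM in 30 °C controls. The groups overlapped, with 4 of the 6 mice at 22 °C above all mice at 30 °C. The log2 fold change was 1.05 ± 0.28 (edgeR adjusted p = 0.158, DESeq2 adjusted p for mt-Nd5 = 0.0159). Over the alternatives its adjusted p ran from 0.000386 with no low-count filter to 0.783 without 30 °C control male 1, and without 30 °C control male 2 it was 0.0417.

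Values of the other complex I mRNAs without a copy were 0.39 for mt-Nd2, 0.48 for mt-Nd1 and 0.54 for mt-Nd6. mt-Cytb had 0.54 ± 0.23 and mt-Co1 0.67 ± 0.25. The mRNAs with a nearly whole chromosome 1 copy had a median of 0.88, against 0.54 for the 6 with no copy beyond the overlap of mt-Atp8. mt-Nd4l was 104.0, 359.0 and 693.0 CPM in 22 °C controls, against 19.6, 87.3 and 163.6 CPM in 30 °C controls. Its log2 fold change was 2.05 ± 0.68 (edgeR adjusted p = 0.264). Its copy Gm10222 had 1.39, but reads within their match cannot be assigned to one place, so these values are not independent. The rRNAs had the smallest values outside the tRNAs, 0.32 ± 0.26 for mt-Rnr1 and 0.37 ± 0.24 for mt-Rnr2. Of the tRNAs all 17 had positive values, with mt-Tp at 0.69 ± 0.24.

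Among ablated mice, 16 of 17 tRNAs, both rRNAs and 13 of 13 mRNAs were higher at 22 °C than at 30 °C in estimate. Again 0 of 32 were called by edgeR (0.0346% of all genes), and DESeq2 and limma voom called 0. An unadjusted p under 0.05 was reached by 4 of 32, against 9.78% of all genes. In Ai39 x BAC-AT1A-Cre mice alone, with sex as an additive term, 0 of 33 reached it. The median of the 13 mRNAs was 0.55, beside 0.00 over all genes. The sexes differed in direction. Mean log2 CPM was higher at 22 °C for 13 of 13 mRNAs in females (median difference 1.26) and for 3 of 13 in males (median -0.13), a contrast that was not tested. mt-Co1 averaged 91143 ± 21401 CPM at 22 °C and 44682 ± 15288 CPM at 30 °C in ablated females, against 63175 ± 7918 CPM at 22 °C and 70337 ± 7241 CPM at 30 °C in ablated males (SD, n = 3 each). mt-Nd5 was 7141, 9775 and 15408 CPM in 22 °C ablated mice, against 3008, 7228 and 10720 CPM in 30 °C ablated mice. Its log2 fold change was 0.55 ± 0.26 (edgeR adjusted p = 0.495). With no filter on low counts edgeR called 6 members, namely mt-Atp6, mt-Atp8, mt-Co2, mt-Co3, mt-Nd3 and mt-Nd4l, where 1.77% of all genes were called. Beside these values, Malat1 and Neat1 summed to 2167 to 4768 CPM at 22 °C, against 974 to 2110 CPM at 30 °C. Their log2 fold changes again were 1 positive and 1 negative. With total counts in place of TMM, the median of Neat1 was 1994 CPM at 22 °C and 755 CPM at 30 °C. The median of Malat1 was lower at 22 °C, at 543 CPM, against 730 CPM at 30 °C. The 6 stellate cell markers summed to 126.3 to 304.1 CPM at 22 °C, against 40.3 to 196.2 CPM at 30 °C, and all 6 had positive values (median log2 fold change 1.01). Positive values were also found for all 5 sinusoidal endothelial (0.40), all 4 cholangiocyte (0.50) and 3 of 4 lymphocyte markers. Kupffer cell markers were 3 positive and 3 negative. All 6 hepatocyte markers (-0.18) and 4 of 5 erythroid markers were negative. The part of these shifts in the mitochondrial values was not tested.

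Ratios of 2 transcripts within a library do not depend on how libraries are scaled, and 8 were compared by exact two-sided permutation tests within sex, in 5 comparisons. Of the 40 tests, 4 passed an adjusted p under 0.05, adjusted over the 40. In controls, 3 ratios that involve mt-Nd5 differed between temperatures. The mt-Nd5/mt-Nd4 ratio of read counts was 0.495 at lowest, 0.624 at the median and 0.680 at highest in 22 °C controls, against 0.349, 0.426 and 0.477 in 30 °C controls. The groups did not overlap. The log2 difference, averaged over sexes, was 0.50 (exact permutation p = 0.00286, adjusted p = 0.0333), and all 3 ratios gave the smallest p these groups allow.

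For mt-Cytb/mt-Nd5 the 22 °C controls had 2.65, 2.68 and 3.43, against 3.64, 3.92 and 4.70 in 30 °C controls, again without overlap (log2 difference -0.47, exact permutation adjusted p = 0.0333). For mt-Nd6/mt-Nd5 the 22 °C controls had 0.265, 0.307 and 0.314, against 0.393, 0.416 and 0.447 in 30 °C controls (log2 difference -0.49, exact permutation adjusted p = 0.0333). The 3 ratios share mt-Nd5 and are not independent of each other. In each, mt-Nd5 was higher at 22 °C relative to its partner, whether that is annotated on the same strand (mt-Nd4, mt-Cytb) or on the other (mt-Nd6). Whether the reads of mt-Nd6 come from its own strand was not tested. mt-Nd5 made up 6.18% ± 0.65 of mitochondrial mRNA reads in 22 °C controls and 4.57% ± 0.53 in 30 °C controls (SD, n = 6 each).

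The 2 control mice at 30 °C that were BAC-AT1A-Cre alone had mt-Nd5/mt-Nd4 ratios of 0.412 and 0.477, against 0.349 to 0.474 in the other 4. Leaving out any 1 library of these groups kept the log2 difference of mt-Nd5/mt-Nd4 between 0.45 and 0.55. The adjusted p then rose to between 0.050 and 0.095 for each of the 3 ratios, since fewer arrangements are possible. Without 30 °C control male 1 it was 0.095.

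In ablated mice mt-Nd6/mt-Nd5 was 0.311, 0.338 and 0.416 at 22 °C, against 0.377, 0.392 and 0.531 at 30 °C (log2 difference -0.28, exact permutation p = 0.020, adjusted p = 0.133). For ablation at 22 °C the same ratio was 0.348 ± 0.042 in ablated mice and 0.299 ± 0.019 in controls (SD, n = 6 each; exact permutation p = 0.020, adjusted p = 0.133). Neither passed. Whether the temperature difference itself depends on ablation was not tested.

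**Figure D4:**
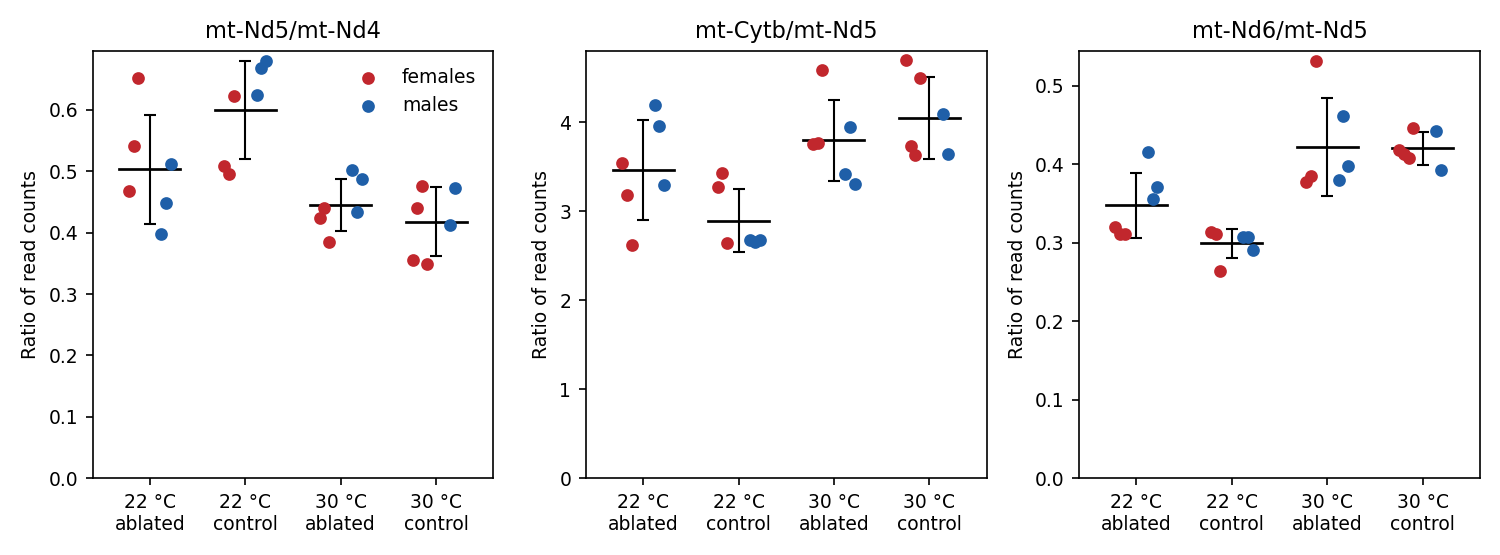
Ratio of read counts (y axis, linear from 0) for 3 pairs that include mt-Nd5, by temperature and ablation (x axis); points are mice coloured by sex, lines and bars mean ± SD of 6 mice. In controls the 22 °C and 30 °C mice do not overlap in any of the 3 ratios, while the ablated groups overlap in each.

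No other ratio passed in the ablation and temperature comparisons. mt-Rnr2/mt-Nd1, which sets the large rRNA against the mRNA that follows it, ranged 1.75-fold over all libraries, and mt-Nd1/mt-Nd2, neighbours on the same strand, 1.55-fold. mt-Co2/mt-Co1 and mt-Atp6/mt-Co2 ranged 4.04-fold and 3.89-fold, and both include genes with a chromosome 1 copy.

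Sex gave the calls on single genes. Cre was carried by 1 of 3 control males at 22 °C and both at 30 °C. Of the control females, 0 of 3 at 22 °C and 1 of 4 at 30 °C carried it. In controls sex and Cre can therefore be told apart only in part, and no comparison of the sexes had Cre as a term. In controls, 3 of 32 members were called by edgeR between females and males, all lower in females, where 1.23% of all genes were called lower. A total of 2.81% of all genes were called. DESeq2 and limma voom called the same 3. They are mt-Tn, mt-Tc and mt-Ty, which lie next to each other on the minus strand between mt-Nd2 and mt-Co1. mt-Tn was 3.58 CPM at lowest, 4.52 at the median and 9.58 at highest in 7 control females, against 12.6, 12.8, 13.1, 17.7 and 19.5 CPM in the 5 control males. The sexes did not overlap, as in 1.95% of all genes. The log2 fold change was -1.41 ± 0.26 (edgeR adjusted p = 0.000809).

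mt-Ty was 6.61, 9.39 and 29.0 CPM in control females, against 19.7, 20.2, 24.01, 26.5 and 31.8 CPM in control males. Only 22 °C control female 3 reached the males' range. The log2 fold change was -0.93 ± 0.25 (edgeR adjusted p = 0.0397). mt-Tc was 14.9, 18.2 and 44.7 CPM in control females, against 24.5, 36.9, 45.6, 48.7 and 55.0 CPM in control males, with overlap between the sexes and a log2 fold change of -0.78 ± 0.21 (edgeR adjusted p = 0.0461). These genes are counted from few reads, and their calls differ in firmness. mt-Tn was called without any 1 library, with an adjusted p of at most 0.00558. mt-Ty and mt-Tc were lost without 9 and 10 of the 12 control libraries in turn, with adjusted p up to 0.174 and 0.152, 30 °C control male 1 among them. Both were also lost with DESeq2 size factors in edgeR, with only the groups compared, with sex as an additive term, with a replicate block and with Ai39 x BAC-AT1A-Cre mice alone.

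**Figure D5:**
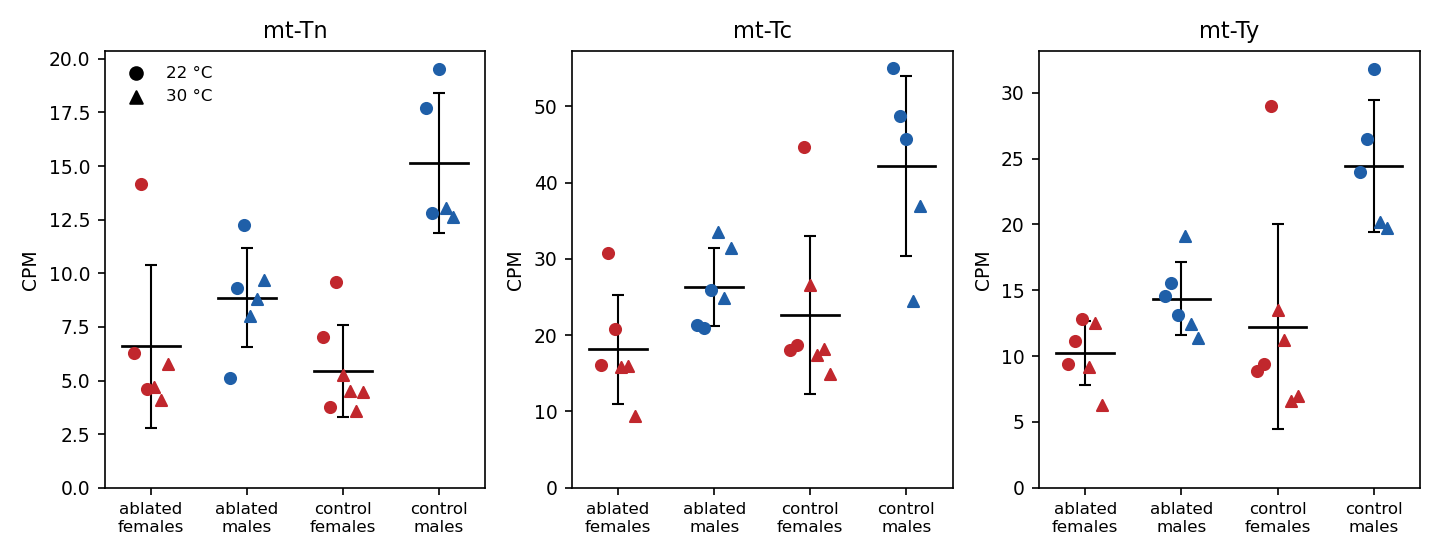
CPM (y axis, linear from 0) of mt-Tn, mt-Tc and mt-Ty in females and males, ablated and control (x axis); circles are mice at 22 °C and triangles mice at 30 °C, lines and bars mean ± SD. Control females and males do not overlap for mt-Tn, and the sexes overlap for all 3 in ablated mice.

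In ablated mice the same contrast, added after the controls were seen, called 0 of 32 members by edgeR, DESeq2 or limma voom (2.24% of all genes by edgeR). An unadjusted p under 0.05 was reached by 5 of 32, against 10.8% of all genes. mt-Tn was 4.09, 5.23 and 14.2 CPM in 6 ablated females, against 5.13, 9.07 and 12.3 CPM in 6 ablated males (log2 fold change -0.48 ± 0.25, edgeR adjusted p = 0.525). mt-Tc and mt-Ty had log2 fold changes of -0.57 and -0.49. The sexes did not overlap for mt-Te, at 15.99, 33.2 and 42.4 CPM in ablated females, against 42.8, 62.5 and 71.3 CPM in ablated males (-0.92 ± 0.34, edgeR adjusted p = 0.260), as in 1.67% of all genes. The difference between treatments in these sex effects was not tested.

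All 13 mRNAs had negative female-to-male values in controls, with a median of -0.35 beside 0.08 over all genes. The median was -0.67 without 22 °C control female 3, -0.44 without 30 °C control male 1 and -0.21 without 22 °C control female 1. Without 22 °C control female 3 edgeR called 10 of 32 members, where 3.06% of all genes were called. All 10 were lower in females: mt-Rnr2, mt-Nd2, mt-Nd4, mt-Nd5, mt-Nd6, mt-Cytb and 4 minus-strand tRNAs (mt-Tn, mt-Tc, mt-Ty and mt-Te). With total counts in place of TMM, 11 of 13 mRNA values were negative.

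The balance of the rRNAs was the fourth ratio to pass. mt-Rnr2/mt-Rnr1 was 0.8997, 0.954 and 1.04 in control females, against 1.06, 1.07, 1.12, 1.23 and 1.40 in control males, without overlap. The log2 difference was -0.28 (exact permutation p = 0.00333, adjusted p = 0.0333), the smallest p that these groups allow. Without any 1 of the 12 control libraries it no longer passed, with fewer arrangements possible. Without 30 °C control male 1 the log2 difference was -0.30 (exact permutation adjusted p = 0.100). In ablated mice it was 1.02 ± 0.08 in females and 1.08 ± 0.13 in males (SD, n = 6 each; log2 difference -0.07, exact permutation p = 0.470). Of the 8 ratios in ablated mice, mt-Nd1/mt-Nd2 differed between the sexes, at 0.988 ± 0.100 in females and 0.815 ± 0.016 in males (SD, n = 6 each; log2 difference 0.27, exact permutation p = 0.005, adjusted p = 0.048 over 48 tests). This too is the smallest p that these groups allow, in tests added after the controls were seen. Values with 1 library left out are not given for it. In controls the same ratio was 0.855 ± 0.099 in 7 females and 0.822 ± 0.054 in 5 males.

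The nuclear genes that maintain, transcribe and process mitochondrial DNA and RNA were compared as a list of 45, all of which were tested. For ablation at 22 °C, ablation at 30 °C, temperature in controls and temperature in ablated mice, 0 of 45 were called by edgeR. An unadjusted p under 0.05 was reached by 4, 1, 4 and 2 of the 45, against 8.34%, 6.96%, 12.6% and 9.78% of all genes. The median log2 fold changes of the list were -0.06, 0.02, -0.01 and -0.11, beside 0.02, 0.05, 0.05 and 0.00 over all genes. Tfam was 23.98, 27.4 and 34.8 CPM at lowest, median and highest in 22 °C controls, against 29.1, 31.7 and 33.3 CPM in 30 °C controls (log2 fold change -0.12 ± 0.13, edgeR adjusted p = 0.780). Lrpprc was 69.8, 80.3 and 106.2 CPM in 22 °C controls, against 80.8, 89.1 and 101.0 CPM in 30 °C controls (-0.11 ± 0.13). The groups overlapped for both. Polrmt was 37.4, 44.2 and 65.1 CPM in 22 °C controls, against 23.9, 34.7 and 50.9 CPM in 30 °C controls (0.44 ± 0.17, edgeR adjusted p = 0.304).

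Between control females and males, 2 of the 45 were called, 1 in each direction, where 2.81% of all genes were called. Ppargc1a, a coactivator that drives mitochondrial biogenesis, was 9.85, 13.7 and 17.5 CPM in 7 control females, against 7.23, 7.49, 7.62, 7.81 and 9.002 CPM in 5 control males. The sexes did not overlap, as in 1.95% of all genes, and the log2 fold change was 0.77 ± 0.19 (edgeR adjusted p = 0.0176), lost without 30 °C control male 1 (0.0963). Hsd17b10, a subunit of the enzyme that cuts the 5′ ends of mitochondrial tRNAs, was lower in females (-0.58 ± 0.16, edgeR adjusted p = 0.0397).

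The nuclear subunits of the complexes were compared as 20 genes. None was called in the ablation or temperature comparisons by edgeR. In each temperature comparison 2 of 20 reached an unadjusted p under 0.05, against 12.6% of all genes in controls and 9.78% in ablated mice. For temperature in ablated mice all 20 had negative values, beside 13 positive values among the 13 mitochondrial mRNAs. The median of the 20 was -0.19, beside 0.00 over all genes, of which 49.6% were negative. For temperature in controls 16 of 20 were negative (median -0.12, beside 0.05 over all genes, of which 45.2% were negative). With total counts in place of TMM 20 of 20 were negative. In that scaling a higher mitochondrial share itself lowers the values of nuclear genes. For ablation, 14 of 20 were positive at 22 °C (median 0.08, beside 0.02 over all genes). At 30 °C 17 of 20 were positive (median 0.15, beside 0.05).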

How the data were processed

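Liver poly-A RNA of 24 mice was sequenced, 1 library per mouse. The submitters' processing notes name CASAVA, HISAT2, DESeq2 and GRCm39 (mm39). No source used here gives the counter, the annotation release or the strandedness. The deposited tables hold raw read counts per gene, the authors' FPKM, a normalized signal by the authors that was not used for tests, and gene length. Raw counts were fitted with edgeR 4.0.16 (R 4.3.3; TMM scaling, filterByExpr, 8 group means with 16 residual degrees of freedom, robust quasi-likelihood test) over 20213 genes, with Benjamini-Hochberg adjustment and a threshold of 0.05. SE is the absolute log2 fold change divided by the root of F. Comparisons average both sexes, and temperature is coded 22 °C minus 30 °C. DESeq2 1.42.0 and limma 3.58.1 were alternatives, as were other scalings, filters, designs and libraries left out. Log2 ratios of counts (pseudocount 0.5) were compared by exact permutation within sex, or within temperature for sex. Means within each sex were added after the data were seen. Principal components used log2 CPM with a prior count of 2.

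Members and lists were chosen with earlier results of these data known. The 13 mRNAs, 2 rRNAs, the 5 tRNAs with most reads and any called tRNA were named, with Tfam, Polrmt, Lrpprc, Ppargc1a, called nuclear genes and the 3 copies with most reads. On simulated data for ablation at 22 °C (19057 genes), 54% of 2-fold and 83% of 4-fold changes were recovered, with 2.14% false calls.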

Additional observations from a re-analysis of the deposited data

Results flagged for a closer look

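Within groups of 4 to 6 mice, 80 sets of values were screened for a mouse far from the others, and 8 were found. Chance alone marks about 1 in 20 independent sets, but these sets share mice and genes that vary together, so the count cannot be read against that rate. In 22 °C ablated mice, female 2 was highest for mt-Nd1 (27740 CPM, next mouse 19360), mt-Nd4 (28500, next 21180), mt-Cytb (49060, next 35700) and mt-Rnr2 (2922, next 1988). Among the 4 control females at 30 °C, female 1 was highest for mt-Co1 (76680 CPM, next 49510) and mt-Rnr2 (2562, next 1255). For mt-Co2, 22 °C control female 3 had 11920 CPM (next 5711). For mt-Atp8, 30 °C ablated male 1 had 20.8 CPM (next 8.63).

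For 3 genes every ablated mouse of one sex lay above, and every ablated mouse of the other sex below, the mean of the controls of its own sex. The share of all genes with this pattern is not given here, so the 3 cannot be set against a rate. mt-Nd3 and mt-Atp6 have a nearly whole chromosome 1 copy and are uncertain. The difference between the sexes was not tested. At 22 °C, mt-Atp8 differed by 9.81 CPM in females and -8.76 CPM in males, and mt-Nd3 by 87.8 CPM in females and -148.9 CPM in males. At 30 °C, mt-Atp6 differed by -1287 CPM in females and 199.6 CPM in males.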

How the results depend on the processing

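Without the low-count filter edgeR called 4 members for ablation at 22 °C, 13 and 6 for temperature in controls and in ablated mice, 1 for the difference of ablation effects, and 6 and 3 for sex in controls and in ablated mice. DESeq2 called 2 for temperature in controls. For sex in controls 1 was called with DESeq2 size factors, only the groups compared, sex additive, a replicate block, or Ai39 x BAC-AT1A-Cre mice alone. For sex in ablated mice 2 were called with only the groups compared, sex additive, or Ai39 x BAC-AT1A-Cre mice alone. The temperature difference in share in controls was 0.0554 points for rRNAs alone, a smaller class. Leaving out 1 library gave 0 to 3 calls for ablation at 30 °C, 0 to 7 for temperature in controls, 1 to 10 for sex in controls, 0 to 3 for the difference, and 0 to 4 ratios. With the replicate block 0 ratios passed. Deviations of same-numbered mice had correlations of -0.14 to 0.096, and the numbers were not treated as pairs. The labels do not say whether the numbers pair mice. Calls over all genes ranged from 0 to 400 for ablation at 22 °C (19 in the fit reported) and from 0 to 1608 for temperature in controls (7). Of 4265 values of uncalled genes under alternatives, 172 changed sign. Except where stated, the cause was not tested. Few reads limit the precision of tRNA values.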
